A study of Mus musculus with 6 samples.

Results

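Inherited cerebellar ataxias are disorders in which Purkinje cells and other neurons of the cerebellum fail, and 7 mouse genes whose human counterparts cause dominant forms of them are described here in the cerebellum of daDREAM and wild-type mice. Every probe set that the platform annotation assigns to exactly 1 gene symbol, and to Atxn1, Atxn2, Atxn3, Atxn7, Atxn10, Ttbk2 or Ppp2r2b, was taken, whatever its values. This gave 25 of the 45101 probe sets on the array, for 7 of 18193 genes with such a probe set. A further probe set, annotated to both Ttbk2 and Cdan1, was left out because it names more than 1 gene. Cerebellar tissue was taken from transgenic mice carrying daDREAM and from wild-type mice, with 3 independent Affymetrix Mouse Genome 430 2.0 arrays for each genotype. DREAM, the product of Kcnip3, represses transcription until calcium binds it, and daDREAM is a mutant form that represses irrespective of calcium. The sources used here give neither the age and sex of the mice nor the promoter that drives the transgene.

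Ataxin-1, ataxin-2, ataxin-3 and ataxin-7, the products of Atxn1, Atxn2, Atxn3 and Atxn7, each carry a stretch of glutamines in humans, and its expansion by a longer run of CAG codons causes disease. Expansions outside the coding sequence affect ATXN10, in an intron, and PPP2R2B, upstream of the protein, while truncating mutations affect TTBK2. These proteins share no single pathway: they act in transcriptional repression, RNA metabolism, removal of ubiquitin, the formation of cilia and protein dephosphorylation. Disease in humans follows mainly from altered alleles, which an expression array does not read. The values below are levels of transcript from the mouse genes.

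DREAM binds DNA at downstream regulatory elements, whose core holds the letters GTCA. RefSeq promoter windows of assembly GRCm38.p6, from 250 bases before to 50 bases after a gene start, were read for 5 of the 7 genes, with 7 windows in all. Shown are the windows of the gene with the only probe set whose genotypes did not overlap (Atxn10), of the gene with the lowest difference at its brightest probe set (Atxn7) and of the gene with the highest (Atxn3). Capitals mark GTCA and its reverse complement TGAC.
Atxn10 promoter, chr15:85336005-85336304, + strand: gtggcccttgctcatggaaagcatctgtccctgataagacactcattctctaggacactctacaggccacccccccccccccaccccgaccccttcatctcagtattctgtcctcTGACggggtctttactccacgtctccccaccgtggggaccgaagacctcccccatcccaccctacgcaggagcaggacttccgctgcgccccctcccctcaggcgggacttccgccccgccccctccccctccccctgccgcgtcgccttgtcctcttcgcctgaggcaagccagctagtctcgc
Atxn7 promoter, chr14:14012241-14012540, + strand: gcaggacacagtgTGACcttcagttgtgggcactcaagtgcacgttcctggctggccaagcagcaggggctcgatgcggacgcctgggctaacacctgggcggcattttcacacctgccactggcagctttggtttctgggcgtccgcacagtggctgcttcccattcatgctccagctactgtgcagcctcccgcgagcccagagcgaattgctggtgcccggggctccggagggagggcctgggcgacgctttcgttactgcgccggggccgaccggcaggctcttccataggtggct
Atxn3 promoter, chr12:101958194-101958493, - strand: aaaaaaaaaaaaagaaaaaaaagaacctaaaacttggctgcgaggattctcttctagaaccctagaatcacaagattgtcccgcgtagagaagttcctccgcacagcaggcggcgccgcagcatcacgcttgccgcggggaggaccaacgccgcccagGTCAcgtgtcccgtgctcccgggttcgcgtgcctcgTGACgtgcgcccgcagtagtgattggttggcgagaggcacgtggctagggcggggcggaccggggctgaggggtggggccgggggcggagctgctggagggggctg

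The core stood in 7 of the 7 windows, 1 time in the Atxn10 and Atxn7 windows and 2 times in the Atxn3 window. It is a short and common run of letters: 85.2% of 32851 promoter windows of 300 bases held it on either strand, with a median of 2 matches. The match of the Atxn10 window and 1 of the 2 of the Atxn3 window overlapped CGTCA or its reverse complement TGACG, the longer run found in cyclic AMP response elements, which 20.8% of all windows held. A match describes these letters and does not show binding.

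None of the 25 ataxia gene probe sets passed the test between daDREAM and wild-type cerebellum. In the limma fit across 45037 probe sets, 0 of the 25 passed at an adjusted p under 0.05 (adjusted p = 0.998 for each), beside 0% of all probe sets, and 0 of the 25 had an unadjusted p under 0.05, beside 1.81% of all. Of the 25, 11 were higher and 14 lower in daDREAM, with a median difference of -0.08 log2 units, where the median over all probe sets was 0.01. The median size of a difference, ignoring sign, was 0.10 for the members and 0.10 over all probe sets. For 24 of the 25 the difference was smaller than the larger of the SDs within the genotypes.

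In the fit on genotype alone the intervals bound the differences as follows. All 25 of the 95% intervals included 0 and stayed within 1 log2 unit, a change of 2-fold, to either side. They stayed within 0.5 log2 units for 14 of the 25. The lowest bound was -0.73, a ratio of 0.602, at an Atxn7 probe set, and the highest was 0.66, a ratio of 1.58, at an Atxn3 probe set. These intervals are for 1 probe set at a time. They do not hold once the level of the hybridization controls, described further on, enters the fit: the Atxn3 probe set 1434408_at then stood at 0.85 (interval 0.47 to 1.23) and the Atxn7 probe set 1436175_at at 0.40 (interval 0.03 to 0.77). Fewer cells of a type and less RNA per cell cannot be told apart in tissue.

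**Figure D1:**
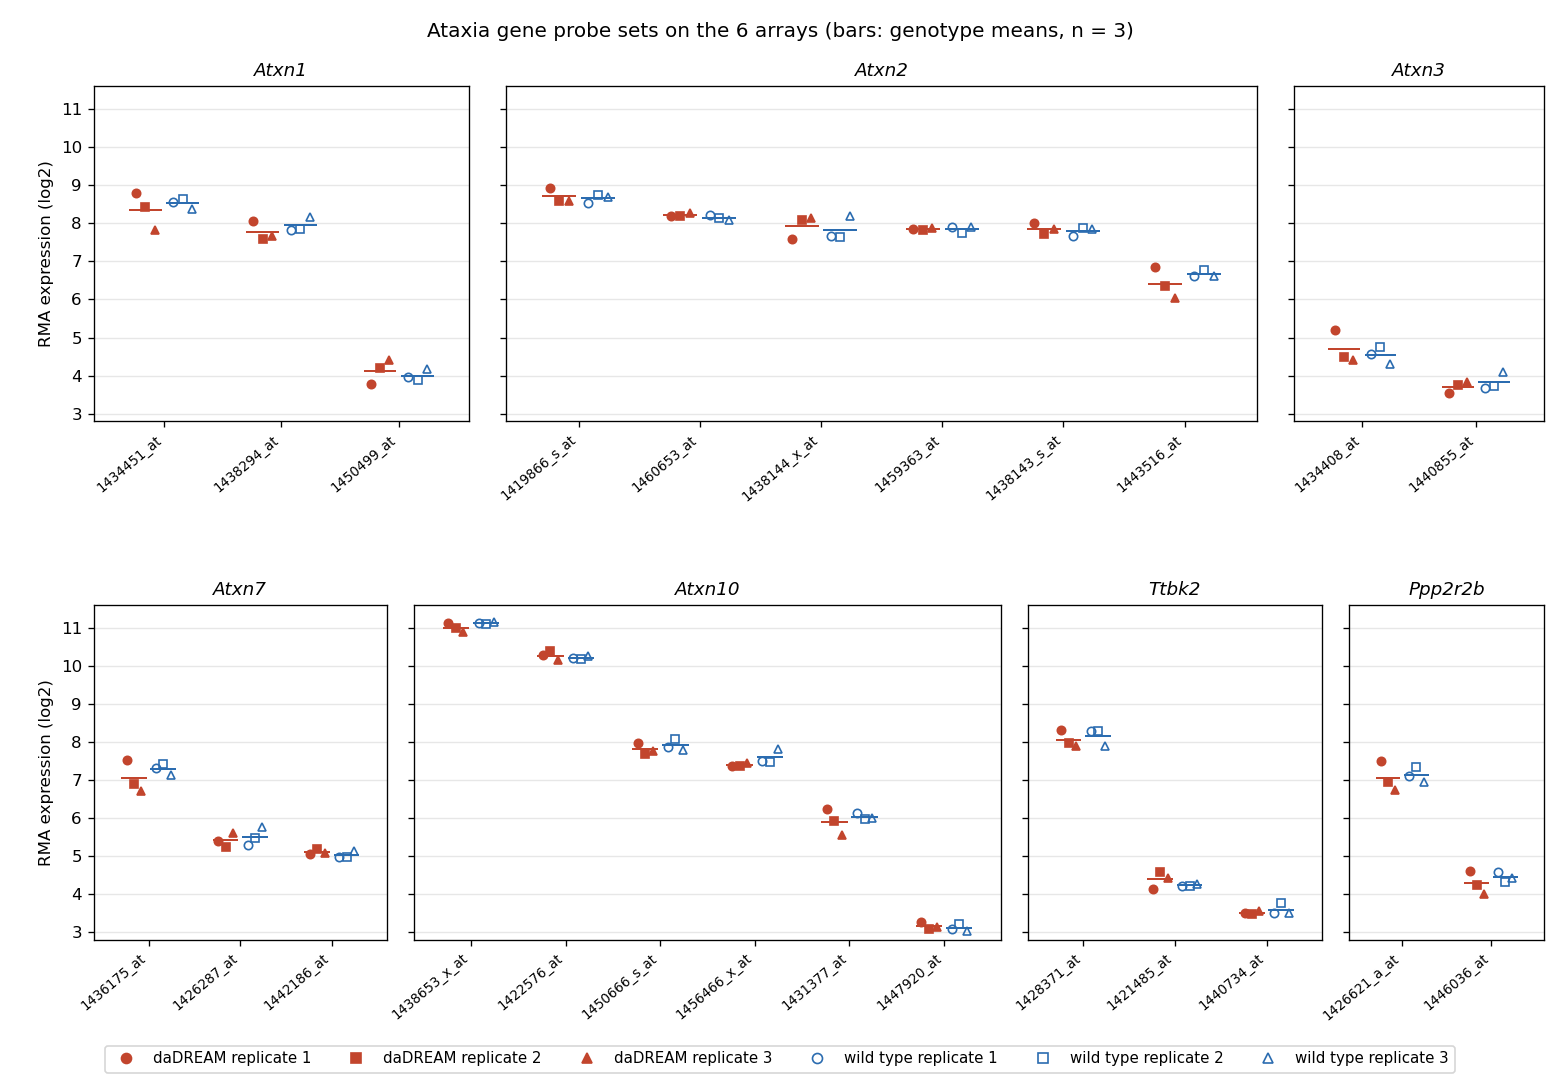
Expression (RMA, log2, vertical axis) of the 25 probe sets, one panel per gene, with daDREAM arrays as filled red symbols on the left and wild-type arrays as open blue symbols on the right of each probe set, and bars at the genotype means (n = 3). Filled and open symbols overlap at 24 of the 25 probe sets, and the exception is 1456466_x_at of Atxn10.

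Atxn1 encodes ataxin-1, a nuclear protein that binds the repressor Capicua and takes part in silencing its target genes. Its brightest probe set, 1434451_at, read 8.79, 8.43 and 7.82 in daDREAM cerebellum, against 8.57, 8.65 and 8.38 in wild-type cerebellum (log2 level). The daDREAM arrays held both the highest and the lowest of the 6 values. The difference was -0.19 with a 95% interval from -0.72 to 0.35. Probe set 1438294_at read 8.06, 7.58 and 7.68 in daDREAM and 7.83, 7.86 and 8.18 in wild type, a difference of -0.18 (interval -0.57 to 0.20). The dim probe set 1450499_at differed by 0.13, at 4.13 ± 0.32 in daDREAM and 4.00 ± 0.16 in wild type (SD, n = 3). Its daDREAM replicate 1 was the lowest of the 6 arrays, while the same array was the highest at 1434451_at. The brighter probe sets 1434451_at and 1438294_at had the same sign, and daDREAM replicate 1 was the highest daDREAM array at both. Only the dim probe set went the other way.

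Atxn2 encodes ataxin-2, a cytoplasmic protein that binds RNA and the poly(A)-binding protein and enters stress granules. Among its 6 probe sets, daDREAM was higher at 5 and lower at 1, with differences of -0.25 to 0.10, and after median centring 1 of the 5, 1459363_at, stood at -0.02. The brightest, 1419866_s_at, read 8.93, 8.60 and 8.60 in daDREAM and 8.54, 8.75 and 8.70 in wild type. Its difference was 0.05 (interval -0.27 to 0.36). Probe sets 1460653_at and 1459363_at had the tightest values of the gene, with differences of 0.07 (interval -0.19 to 0.33) and 0.01 (interval -0.25 to 0.27). The lower one, 1443516_at, read 6.86, 6.35 and 6.03 in daDREAM against 6.61, 6.77 and 6.62 in wild type, a difference of -0.25 (interval -0.72 to 0.21). There the wild-type arrays lay between the daDREAM ones. Without daDREAM replicate 1, which held the highest value, that difference was -0.48 and still did not pass (limma adjusted p = 0.221). The remaining probe sets, 1438144_x_at and 1438143_s_at, differed by 0.10 and 0.06.

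Atxn3 encodes ataxin-3, an enzyme that removes ubiquitin from proteins. Both of its probe sets were dim, with means under 5 log2 units, where RMA compresses differences. Probe set 1434408_at read 5.19, 4.49 and 4.40 in daDREAM and 4.57, 4.75 and 4.31 in wild type, a difference of 0.15 with the interval reaching from -0.36 to 0.66. The high daDREAM mean rested on 1 array: without daDREAM replicate 1 the difference was -0.10. The other probe set, 1440855_at, read 3.53, 3.76 and 3.83 in daDREAM and 3.66, 3.73 and 4.09 in wild type, a difference of -0.12 (interval -0.48 to 0.24). The 2 probe sets differed in sign.

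Atxn7 encodes ataxin-7, a subunit of the deubiquitinating module of the SAGA complex, a coactivator of transcription. Its brightest probe set, 1436175_at, read 7.52, 6.88 and 6.71 in daDREAM cerebellum, against 7.30, 7.42 and 7.13 in wild-type cerebellum. Here daDREAM replicate 1 lay above every wild-type array and daDREAM replicates 2 and 3 lay below them. The difference was -0.25 (interval -0.73 to 0.24), and without daDREAM replicate 1 it was -0.49 and did not pass (limma adjusted p = 0.218). Probe set 1426287_at stood at 5.41 ± 0.18 in daDREAM and 5.51 ± 0.25 in wild type (SD, n = 3), a difference of -0.10. Probe set 1442186_at differed by 0.08, in the other direction.

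Atxn10 encodes ataxin-10, a cytoplasmic protein of neurons built from armadillo-like repeats. Its 6 probe sets included the brightest of all members, and 2 were higher and 4 lower in daDREAM, by -0.21 to 0.06. Probe set 1438653_x_at read 11.12, 10.99 and 10.88 in daDREAM and 11.11, 11.09 and 11.14 in wild type. The wild-type arrays lay within a narrow band and 2 of the 3 daDREAM arrays lay below it, with a difference of -0.12 (interval -0.39 to 0.15). Probe set 1422576_at, also bright, read 10.27, 10.38 and 10.14 in daDREAM and 10.19, 10.17 and 10.25 in wild type, a difference of 0.06 (interval -0.21 to 0.33).

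One Atxn10 probe set, 1456466_x_at, was the only one of the 25 whose genotypes did not overlap. It read 7.37, 7.35 and 7.44 in daDREAM, against 7.49, 7.48 and 7.81 in wild type, a difference of -0.21 (interval -0.51 to 0.10). The gap between the highest daDREAM and the lowest wild-type array was small beside the wild-type spread, and the limma test was not passed (unadjusted p = 0.154, adjusted p = 0.998). Its 2-sided exact permutation p was 0.1, the smallest that 3 arrays against 3 can give. Over all probe sets 6.01% did not overlap and 2.26% did so with daDREAM lower, so 1 of 25 lies near the background. The suffix _x_at marks probes that can also match other transcripts. The 3 dimmer or intermediate probe sets 1450666_s_at, 1431377_at and 1447920_at differed by -0.10, -0.13 and 0.05.

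Ttbk2 encodes tau tubulin kinase 2, which phosphorylates tau and tubulin and starts the assembly of primary cilia. The probe set 1428371_at read 8.30, 7.96 and 7.89 in daDREAM and 8.27, 8.27 and 7.90 in wild type, a difference of -0.10 (interval -0.47 to 0.28). Each genotype held values near both ends of this range. The other 2 probe sets were dim. Probe set 1421485_at stood at 4.38 ± 0.22 in daDREAM and 4.23 ± 0.04 in wild type (SD, n = 3), a difference of 0.15, and 1440734_at differed by -0.08.

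Ppp2r2b encodes a regulatory B subunit of protein phosphatase 2A that is found mainly in neurons and directs the phosphatase to its substrates. Both probe sets were lower in daDREAM, and Ppp2r2b was the only one of the 7 genes whose probe sets all had 1 sign. Probe set 1426621_a_at read 7.50, 6.93 and 6.73 in daDREAM and 7.09, 7.34 and 6.93 in wild type, a difference of -0.07 (interval -0.55 to 0.42). The daDREAM arrays again spanned the whole range. The dimmer 1446036_at read 4.60, 4.24 and 4.00 in daDREAM and 4.57, 4.32 and 4.41 in wild type, a difference of -0.15 (interval -0.54 to 0.24).

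**Figure D2:**
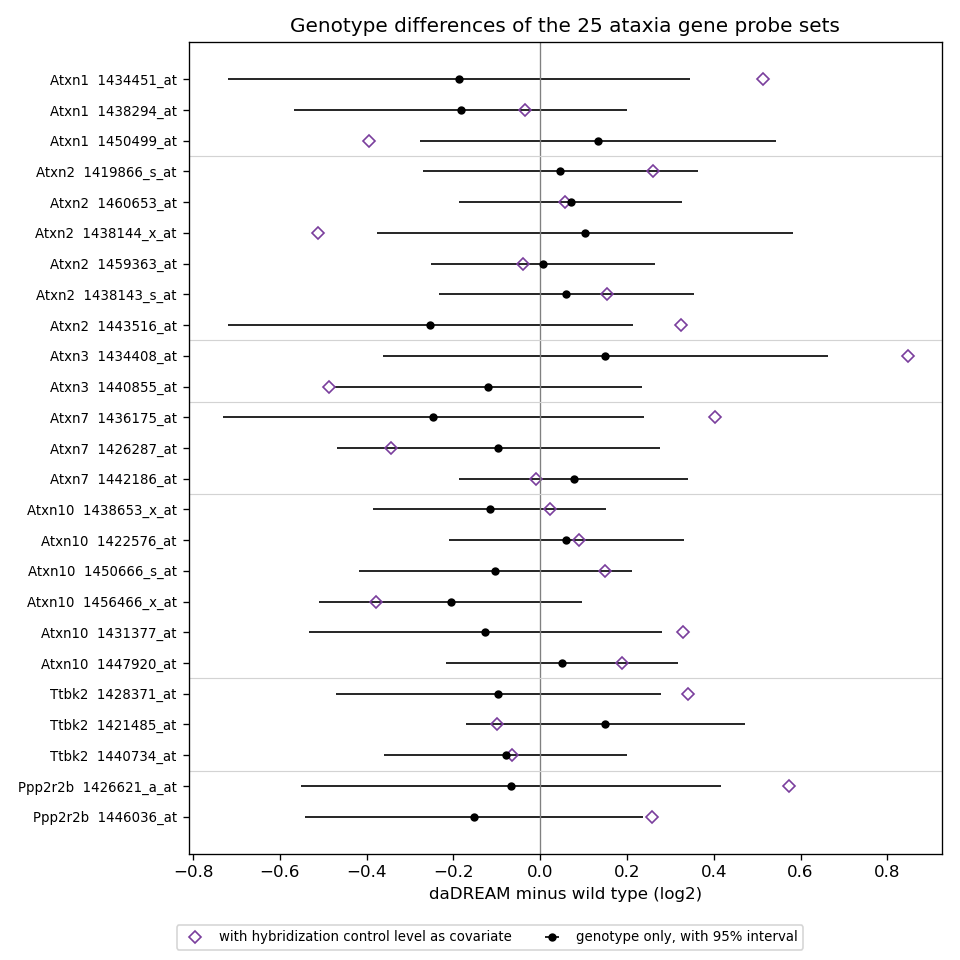
Difference in log2 expression, daDREAM minus wild type (horizontal axis), for each of the 25 probe sets, as black points with 95% intervals from the fit on genotype alone (limma, n = 3 each), and as open diamonds with the mean level of the hybridization controls added to the fit. All 25 intervals cross 0, and the diamond lies on the other side of 0 from the point at 14 probe sets.

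The brightest probe sets of the 7 genes shared an order among the daDREAM arrays. The value on daDREAM replicate 1 was the highest of the 3 daDREAM arrays at 7 of the 7 genes, where 39.3% of all genes, each at its brightest probe set, had it highest. It was the highest of all 6 arrays at 6 of the 7, against 24.4% of all genes, and Atxn10 was the exception. The value on daDREAM replicate 3 was the lowest of the 3 daDREAM arrays at 6 of the 7 genes, against 38.0% of all genes. The range over the daDREAM arrays exceeded that over the wild-type arrays at 7 of the 7 genes and at 71.0% of all genes. Over all 25 probe sets, daDREAM replicate 1 was the highest of 6 at 11, or 44%, against 22.1% of all probe sets. The daDREAM range was the larger at 16 of the 25, or 64%, against 69.2% of all probe sets. These counts were made after the values were seen and carry no test. The shares of all genes and all probe sets include dim ones. The order was not particular to the members. Elovl5, Rad23b and Rbm17, described further on, had it too at their brightest probe sets, while Taf10 had the reverse order.

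Technical measures also differed between the arrays. The mean level of the 18 hybridization control probe sets, which read RNA added in fixed amounts, was 9.47, 10.14 and 10.47 on daDREAM replicates 1, 2 and 3 and 8.99, 8.99 and 9.48 on the wild-type arrays. The genotypes overlapped narrowly, as daDREAM replicate 1 lay within the wild-type range. The means were 10.03 ± 0.51 in daDREAM and 9.15 ± 0.28 in wild type (SD, n = 3, exact permutation p = 0.2, 2-sided). The interquartile range of all probe sets was widest on daDREAM replicate 1, at 3.49, and narrowest on daDREAM replicate 3, at 2.97, with 3.10 to 3.38 in wild type. With the control level as a covariate, 14 of the 25 differences changed sign. The brightest probe sets of Atxn1, Atxn7, Ttbk2 and Ppp2r2b then differed by 0.51, 0.40, 0.34 and 0.57 in place of -0.19, -0.25, -0.10 and -0.07. Atxn3 reached 0.85 at 1434408_at, the smallest adjusted p of the members in that fit (limma adjusted p = 0.0829). No member passed the adjusted threshold. An unadjusted limma p under 0.05 was found for 7 of the 25, beside 23.2% of all probe sets in the same fit. Among these 7 were lower values: -0.39 at 1450499_at of Atxn1, -0.49 at 1440855_at of Atxn3 and -0.51 at 1438144_x_at of Atxn2. Of all 25, 10 were lower in daDREAM in that fit, and the median difference was 0.09. Since the control level partly follows genotype, the 2 cannot be told apart cleanly.

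**Figure D3:**
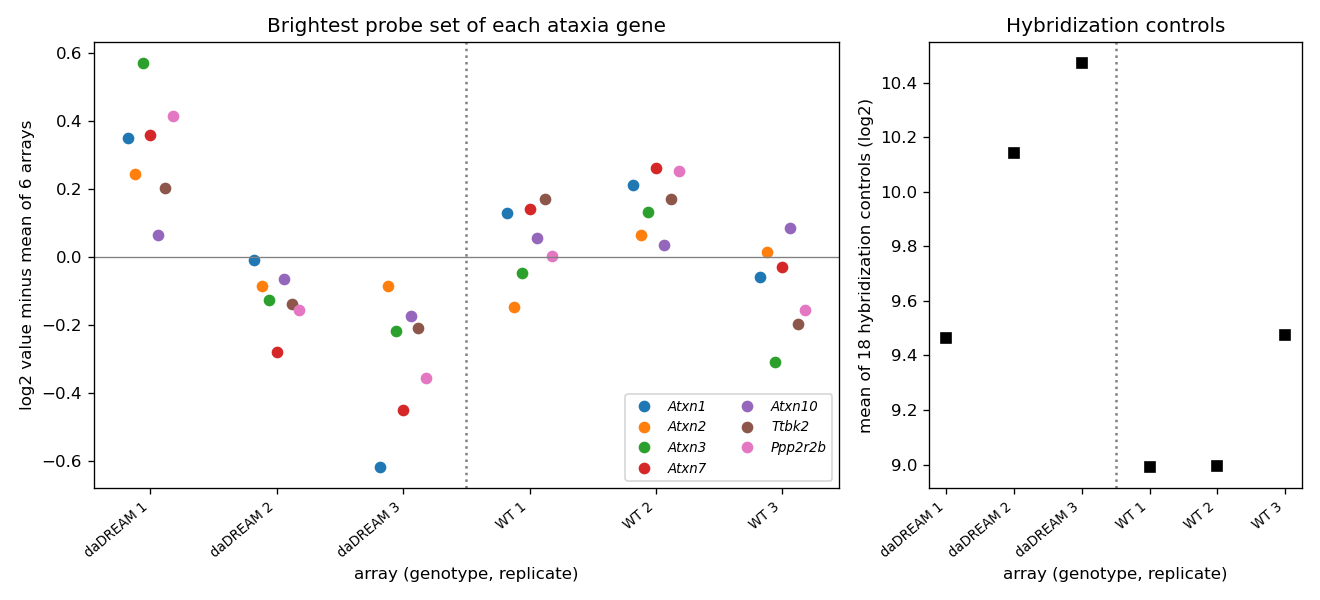
Left, log2 level of each gene at its brightest probe set, minus its mean over the 6 arrays (vertical axis), by array, with daDREAM arrays left of the dotted line. Right, the mean level of 18 hybridization controls on the same arrays, from 9.47 to 10.47 in daDREAM and 8.99 to 9.48 in wild type. The 7 genes stand highest on daDREAM replicate 1 within that genotype.

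Genes of like profile were sought for the brightest probe set of each member, as the smallest root mean square difference of mean-centred log2 values over the 6 arrays. For Atxn1 these were Myo9b at 0.022 and Zfp9 at 0.028, and for Atxn7 they were Arfrp1 at 0.027 and Scaf11 at 0.027. Atxn2 lay nearest to Trim2 at 0.025 and Rapgef6 at 0.028, and Atxn3 to Zfp280c at 0.041 and Tmem123 at 0.045. Atxn10, the flattest profile, lay nearest to Clock at 0.0090 and Cdc37l1 at 0.011. Ttbk2 lay nearest to Mis12 and B4galt6, both at 0.017, and Ppp2r2b to Bahd1 at 0.030 and Tbl1xr1 at 0.031. With 34945 probe sets to choose from and 6 arrays, close profiles are easily found, and all share the arrays' own shifts.

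Other ataxia genes did not pass the test either. Among further genes of dominant ataxia, 20 of 28 listed were measured, 12 were higher and 8 lower in daDREAM, 0 passed in either direction, and the median difference was 0.05. Elovl5, a fatty acid elongase, came nearest: 1437211_x_at read 9.60, 9.18 and 9.16 in daDREAM and 9.89, 9.88 and 9.59 in wild type, a difference of -0.47 (interval -0.84 to -0.10, limma unadjusted p = 0.0185, adjusted p = 0.998). Its other probe set differed by -0.32. Tgm6, a transglutaminase, differed by 0.26 at a dim level. Among genes of recessive ataxia 21 of 26 were measured, 10 were higher and 11 lower, 0 passed, and the median was -0.02. Tdp1 and Aptx, both enzymes that repair broken DNA ends, had the smallest p at differences of 0.22 and 0.27. Over all 18193 genes at their brightest probe set the median was 0.01 and 51.2% were higher.

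Paralogs and partners of the members were measured as well. All 10 paralogs had a probe set, with 5 higher and 5 lower, 0 passing and a median difference of 0.00. Atxn7l1 and Atxn7l3, relatives of Atxn7, differed by -0.19 and -0.20 at their brightest probe sets. The other 5 of Atxn7l1 differed by -0.03 to 0.34, with 4 higher, and the highest of them, 1444766_at, did not overlap between genotypes (interval 0.02 to 0.66, limma unadjusted p = 0.0398, adjusted p = 0.998). Of the 19 partners 18 were measured, with 8 higher and 10 lower, 0 passing and a median of -0.05. Rad23b, a ubiquitin receptor whose protein binds ataxin-3, differed by -0.37 at its brightest probe set, and its 3 dimmer ones differed by -0.14 to 0.24. Taf10, a SAGA and TFIID subunit, read 9.24, 9.39 and 9.46 in daDREAM and 9.20, 9.18 and 9.03 in wild type, a difference of 0.23 (interval -0.05 to 0.50) without overlap, while its other probe set differed by -0.43. Rbm17, a splicing factor that binds ataxin-1, differed by -0.05 at its brightest probe set. Its dim second probe set differed by -0.49 without overlap (limma unadjusted p = 0.00694, adjusted p = 0.998), a value known before the gene was chosen. Of the 69 genes measured in these lists, 6 were higher and 1 was lower without overlap, or 8.70% and 1.45%. Over all probe sets the shares were 3.75% and 2.26%. Those cover every probe set, dim ones included, and the list shares only the brightest of each gene, so the 2 are not alike.

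**Figure D4:**
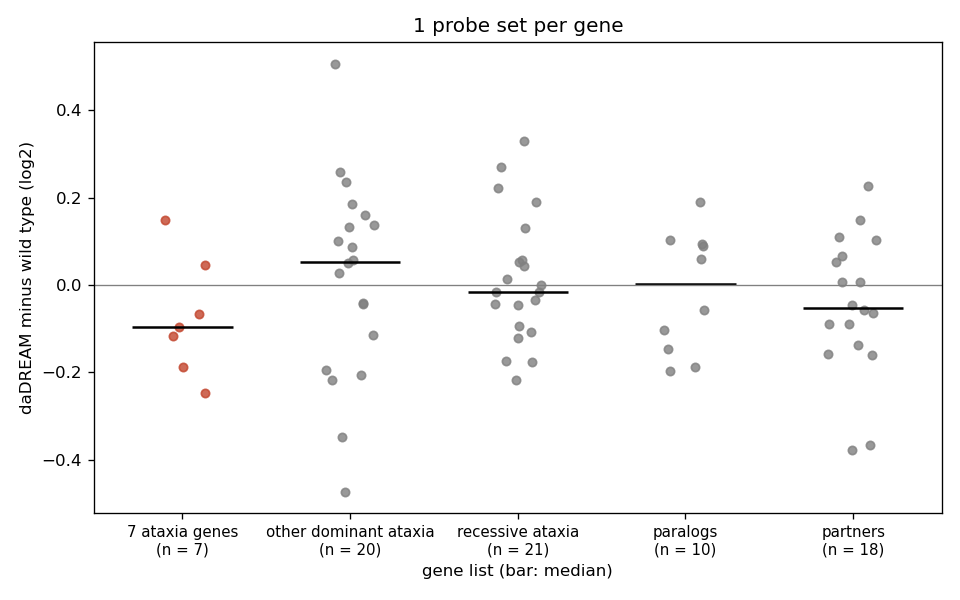
Difference in log2 expression, daDREAM minus wild type (vertical axis), of each measured gene at its brightest probe set, in the 7 ataxia genes and 4 related lists, with horizontal bars at the medians. All medians lie between -0.10 and 0.05.

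Pcp2 and Gabra6, markers of cerebellar neurons, were bright in both genotypes. The Purkinje cell marker Pcp2 read 12.43, 12.47 and 12.47 in daDREAM and 12.43, 12.43 and 12.38 in wild type, and the granule cell marker Gabra6 read 11.94 to 12.08 in daDREAM and 12.03 to 12.07 in wild type. Of the 3 forebrain markers measured, Tbr1 and Neurod6 read at most 3.32 on any array, while Ppp1r1b, which encodes a phosphatase inhibitor, read 8.79 to 9.16. Of 5 brainstem markers, 1 was higher and 4 were lower in daDREAM. Over the 6 arrays Dbh, Hoxa5 and Slc6a5 averaged 6.65, 6.22 and 6.17, and Chat and Hoxb5 averaged 4.40 and 3.54. Whether the tissue held brainstem was not tested. Array means of 5 Purkinje cell markers ran from 11.71 to 11.85 in daDREAM and from 11.74 to 11.88 in wild type. Of these, 1 (Pcp2) was higher and 4 were lower in daDREAM, with a median difference of -0.02. Of 5 granule cell markers, 2 were higher and 3 were lower, with a median difference of -0.01. Barhl1, the dimmest of the granule cell markers at a mean of 6.79, differed by 0.28. Choroid plexus markers were higher in daDREAM at 8 of 8 genes and microglial markers at 6 of 6, where 51.2% of all genes were higher. Of these markers 0 passed at an adjusted p under 0.05. An unadjusted limma p under 0.05 was found for 5 of the choroid plexus and 1 of the microglial markers. Of all genes at their brightest probe set, 1.42% had such a p. Over all probe sets, dim ones included, 3.75% were higher in daDREAM without overlap between the genotypes. The same held for 6 of the choroid plexus and 1 of the microglial markers. Their array means were 6.42 to 6.66 in daDREAM and 5.89 to 6.18 in wild type for the choroid plexus, and 6.55 to 6.68 in daDREAM and 6.37 to 6.47 in wild type for microglia. Their part in the values of the ataxia genes was not tested. Kcnip3, the gene of DREAM itself, differed by 0.10 and 0.11 at its probe sets, and whether these read the transgene is not known here.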

How the data were processed

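Cerebellar RNA of daDREAM and wild-type mice was hybridised to 6 arrays, 3 for each genotype. The authors deposited log2 values per probe set. According to the submitters' processing notes, RMA of the affy package was used, which corrects background, equalises probe distributions and summarises each set. The sources used here give no versions. RMA hides a shift shared by most genes and compresses dim probe sets, and no detection calls were used here.

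Genotype and replicate number came from the sample titles. After 64 control probe sets were left out, 45037 were fitted with limma 3.58.1 in R 4.3.3 (lmFit, eBayes, 2-sided, daDREAM minus wild type), without a filter on low values, with Benjamini-Hochberg adjustment over all of them at 0.05 and intervals at 95%. The fit was checked on simulated data. The number of arrays limits precision: the median standard error was 0.15 log2 units for members and for all probe sets. The members and lists were chosen with earlier results of these data known. The named genes were all member probe sets, the 2 nearest profiles per member, the 2 list genes with the smallest p, Kcnip3 and Rbm17. Markers, and any gene outside this rule, were chosen by role. Listed genes without a 1-symbol probe set were not analysed here. Alternatives were the replicate number as a block, a mean of at least 5, median centring, quantile normalization of the deposited values, a robust and trended prior, the hybridization control level as a covariate, each array left out, the mean of a gene's probe sets and an exact permutation test.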

Additional observations from a re-analysis of the deposited data

How the results depend on the processing

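The count of member probe sets past the adjusted threshold was 0 in the fit as reported and under each of the 12 alternatives run for it. No gene's brightest probe set passed under any setting. Signs held for all 7 genes under renewed quantile normalization, median centring and the mean of a gene's probe sets. The trended and robust prior and the filter at a mean of at least 5 cannot change a difference, so their signs were fixed. That filter kept 6 of the 7 genes, and Atxn3, which is dimmer, gave no value there. When the level of the hybridization controls entered the fit, the sign turned at 5 of the 7 genes: Atxn1 stood at 0.51, Atxn7 at 0.40, Atxn10 at 0.023, Ttbk2 at 0.34 and Ppp2r2b at 0.57. The control level partly follows genotype, and the cause was not tested. Leaving out 1 array at a time gave -0.41 to 0.077 for Atxn1, -0.063 to 0.10 for Atxn2, -0.098 to 0.30 for Atxn3, -0.49 to -0.083 for Atxn7, -0.18 to -0.058 for Atxn10, -0.22 to -0.017 for Ttbk2 and -0.29 to 0.095 for Ppp2r2b. Signs turned without daDREAM replicate 1 (Atxn2, Atxn3), daDREAM replicate 3 (Atxn1, Ppp2r2b), wild-type replicate 1 (Atxn2) and wild-type replicate 2 (Ppp2r2b). With the replicate block the count of calls was 0. Each block holds 1 array per genotype, so the block cannot change a difference. Deviations of the same-numbered arrays from the genotype means correlated at 0.12, -0.28 and 0.32 across probe sets. Arrays of different number were not compared, so these values cannot show whether same-numbered arrays share more than a number. At an unadjusted p under 0.05, 817 of 45037 probe sets passed in the fit as reported, 1093 with the replicate block and 7254 without daDREAM replicate 1, where 2 of the 25 members did. With 3 arrays against 3 the exact permutation test cannot go below 0.1.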
